A study of Gasterosteus aculeatus with 17 samples.

Results

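Freshwater three-spined sticklebacks (Gasterosteus aculeatus) that had been put into marine water were compared with freshwater sticklebacks that stayed in fresh water. These are 8 of the 17 fish of the series, chosen by their labels alone: 4 moved fish (numbers 1, 2, 3 and 4), held in marine water for 4 days, and 4 kept fish (numbers 1, 2, 4 and 5). All 8 were wild males in breeding dress from 1 lake, and the kept fish were held in captivity in their own water. Each library is polyadenylated RNA from the gills of 1 fish. Marine water and being moved to other water cannot be told apart in this comparison, because no freshwater fish was moved to other fresh water. The other 9 fish came from a sea coast, either kept in marine water (4) or moved to fresh water for 4 days (5). They are used here only to place single genes, in an alternative fit of all 17 fish, and in finding divisors that a gene's counts share.

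A fish in fresh water loses salt and gains water across the gill, and takes salt up through specialised epithelial cells, the ionocytes. In sea water the same organ secretes salt. Fish that live in both waters change the pumps, channels and junction proteins of the gill when salinity changes, and these changes are known to take hours to days. The stickleback has repeatedly settled lakes from the sea, which has made it a model for adaptation to fresh water. In whole gill, fewer cells of a type and less RNA per cell cannot be told apart.

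The count table names genes by Ensembl ID only, and none of its 22456 IDs could be paired with a symbol. The gills could therefore not be checked against marker genes, the osmoregulatory genes among the IDs were not identified here, and results are given for the transcriptome as a whole and for 4 genes by ID. Total counts were 23736661 to 27949237 in moved fish and 23609866 to 28960967 in kept fish, so depth was alike in both groups. No library looked like a second copy of another of its group. For the 12 pairs of fish within a group, chi-square over its degrees of freedom was 43.6 to 108. This is the variance of counts relative to that of counting error alone. After a filter on low counts, 17871 genes were tested with edgeR's quasi-likelihood test. A gene is called here when its Benjamini-Hochberg adjusted p was below 0.05.

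After 4 days in marine water a small part of the tested genes was called, and most of the called genes were lower on the scale used here. Of the tested genes 254 (1.42%) were called, 206 lower (1.15%) and 48 higher (0.269%) in moved fish. At an unadjusted edgeR p below 0.05 there were 2322 of the 17871 tested genes, a count that includes genes passing by chance. Neither count measures how many genes differed. The median change of the lower genes was -1.07 log2 units and that of the higher genes 1.23, against -0.01 over all tested genes. In absolute size the median over all tested genes was 0.19. Among the lower genes 111 fell more than 2-fold and 31 more than 4-fold, and among the higher genes 34 rose more than 2-fold and 12 more than 4-fold. Over all tested genes 508 had fitted changes above 2-fold, so most fitted changes of that size were not called. No gene was at 0 in all fish of 1 group, among those tested.

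The groups of 4 did not overlap for any of the 254 genes, a property that 1409 of the tested genes (7.88%) had. Without overlap 873 tested genes (4.89%) were lower in moved fish and 536 (3%) higher. The last gene inside the threshold had an adjusted p of 0.0497 and a log2 change of -0.81, and the first outside had 0.0504 and 0.63. Tested against a change of 1.5-fold in place of no change, edgeR called 50 lower and 9 higher genes. The 17-fish fit, in which marine fish set part of the shared spread, called 137 genes (0.751%), of which 127 were among the 254 and had the same sign. That is 50% of the one list and 92.7% of the other.

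**Figure D1:**
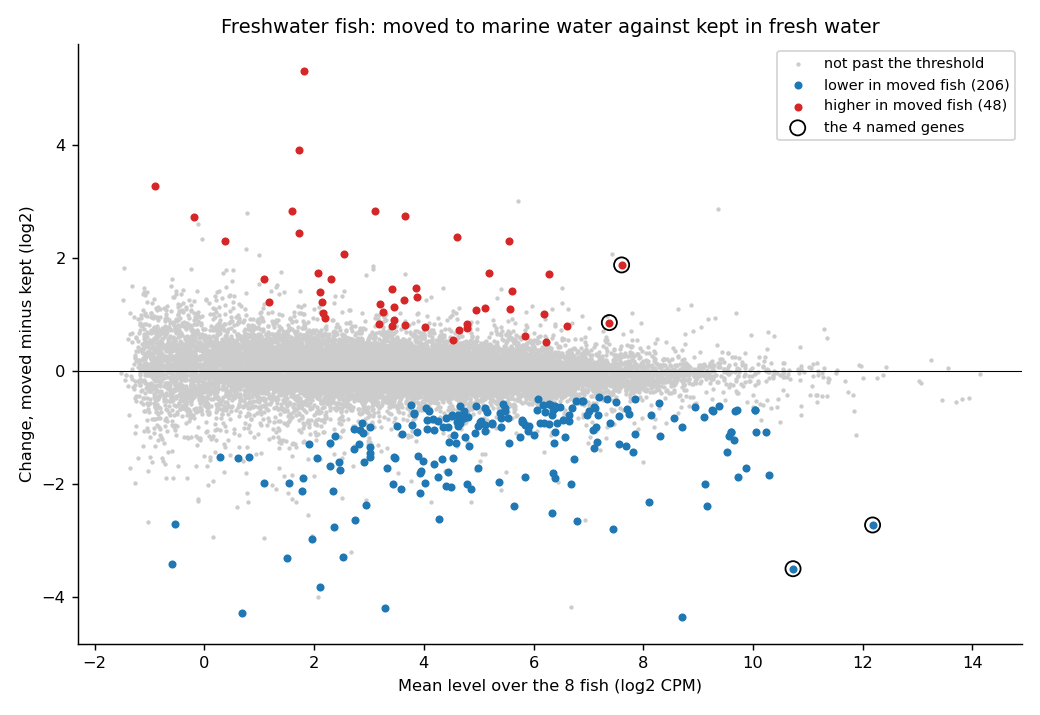
Log2 change of each tested gene in moved against kept freshwater fish (vertical axis) by its mean level in log2 CPM over the 8 fish (horizontal axis). Blue points are the 206 genes called lower, red points the 48 called higher, grey points genes not past the threshold, and circles the 4 named genes. The red points lie mostly at low and middle levels and the blue points reach the high levels.

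The genes that fell were more abundant than those that rose. Levels are in CPM, counts relative to the scaled library total, which are not divided by gene length, so a high level can come from a long transcript. The lower genes had a median level of 37.6 CPM over the 8 fish (quartiles 15.3 and 125), the higher genes 11.6 CPM (quartiles 4.38 and 31.7) and all tested genes 13.1 CPM. Among 568 genes over 256 CPM, 30 (5.28%) were called lower and 0 higher. In the class from 64 to 256 CPM 54 of 2034 genes (2.65%) were lower and 6 higher, and from 4 to 16 CPM 41 of 5444 (0.753%) were lower and 20 higher. Under 1 CPM the 2 directions were equal, with 2 genes each among 1364.

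Precision also changed with level, mostly at low levels. The median standard error of a log2 change was 0.43 under 1 CPM, 0.19 from 4 to 16 CPM and 0.15 from 16 to 64 CPM. It was 0.13 from 64 to 256 CPM and over 256 CPM, so small changes were harder to call at low levels. From 16 to 64 CPM 1.25% of genes were called lower. Absence of overlap between the groups, which uses no error term, was also more frequent in abundant genes, for the lower direction only. Over 256 CPM 75 genes (13.2%) were lower without overlap and 10 (1.76%) higher, while from 1 to 4 CPM 56 (1.85%) were lower and 91 (3%) higher. If the 8 fish were interchangeable, full separation in a given direction would arise in 1 of 70 divisions on average. Shares close to that can arise without a difference between the groups. The part of depth in these shares was not tested. The median log2 change ran from 0.11 in genes under 1 CPM to -0.08 in genes over 256 CPM, on the scale described next.

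Scaling bears on this split. The scaling factors (trimmed mean of M-values, TMM) of moved fish, 1.01 to 1.08, did not overlap those of kept fish, 0.939 to 0.968. With library totals alone the median log2 change of all genes moved by 0.13, and 131 lower and 71 higher genes were called, 64.9% lower in place of 81.1%. Over 256 CPM the calls were then 20 lower and 3 higher, and 8.80% of genes were lower without overlap and 4.93% higher. From 4 to 256 CPM the order of the non-overlapping genes turned: in the class from 4 to 16 CPM 2.17% were lower and 8.21% higher. Directions of change in genes given above and below are relative to the TMM scale, unless library totals are named. Shares of counts, the effective number of genes (defined below) and detection at equal depth use counts without TMM factors. The called genes and classes of level to which some shares refer were set on the TMM scale.

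**Figure D2:**
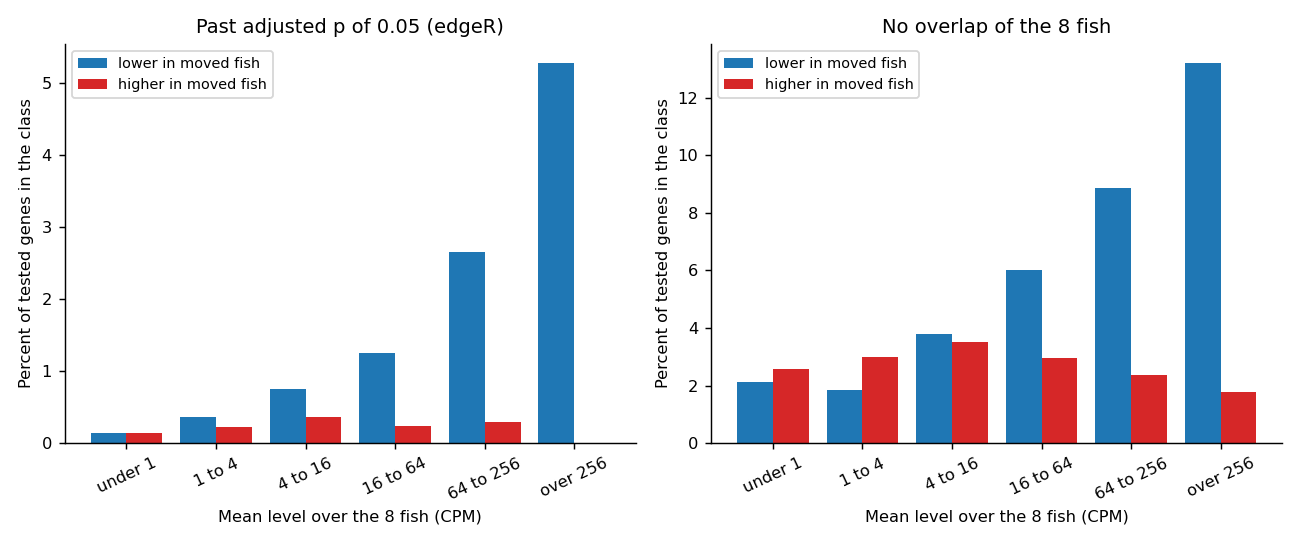
Percent of tested genes in each class of mean level (CPM) that were lower (blue) or higher (red) in moved fish, by edgeR's adjusted p (left) or by absence of overlap between the 4 moved and 4 kept fish (right). Both blue series are highest in genes over 256 CPM, at 5.28% and 13.2%, where the red bars are at 0 and 1.76%.

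In share of all counts, the 206 lower genes took 5.35%, 4.23%, 5.22% and 4.39% in kept fish 1, 2, 4 and 5. They took 2.09%, 2.07%, 2.13% and 1.84% in moved fish 1 to 4. The 48 higher genes took 0.0746% to 0.0794% in kept fish and 0.17% to 0.207% in moved fish. These genes were chosen for such differences, so the shares describe how much RNA was involved and test nothing. Added over genes, the mean levels of the lower genes differed by -30670 CPM and those of the higher genes by 1053 CPM. A pair of genes made up 31.6% of the first sum, and another pair 30.25% of the second. By over 100 CPM, 44 lower genes but only 1 higher gene differed. The 95% Wilson interval of each share of counts given in the text was at most 0.0201 percentage points to either side and covers counting error only.

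The 4 genes described singly are the 2 falls and the 2 rises with the largest difference in mean CPM among called genes without overlap. Counts in all 17 fish share a divisor of 2 for ENSGACG00000009412 and ENSGACG00000011880, and of 3 for ENSGACG00000018949. If each such count is a multiple of a read number, their levels are overstated, which bears on the choice and on ranks. With counts divided by the shared divisor, their log2 changes were -2.73, 0.86 and -3.50 in that order. On undivided counts, ENSGACG00000009412 was the gene with the 13th highest mean level of all tested genes. It stood at 9341, 6859, 9282 and 6856 CPM in kept fish 1, 2, 4 and 5. In moved fish 1 to 4 it stood at 1245, 1491, 1178 and 956 CPM. Every moved fish was far below every kept fish, and fish within a group were close. The means were 8085 ± 1417 CPM in kept fish (SD, n = 4) and 1218 ± 220 CPM in moved fish (n = 4). The log2 change was -2.73 (SE 0.19, edgeR adjusted p = 3.1e-04).

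ENSGACG00000018949 changed by a larger factor and varied more among kept fish. Its levels were 4745, 2386, 3814 and 1508 CPM in kept fish 1, 2, 4 and 5, and 299, 404, 129 and 264 CPM in moved fish 1 to 4. Kept fish 1 and 4 were high and kept fish 5 low, as for the first gene, and moved fish 3 was lowest. From 3113 ± 1444 to 274 ± 114 CPM (SD, n = 4 each), the log2 change was -3.51 (SE 0.43, edgeR adjusted p = 0.0048). In the 17-fish fit it missed the threshold (edgeR adjusted p = 0.088).

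The 2 named rises were smaller than the 2 named falls and began from lower levels. The choice by difference in CPM favours abundant genes. Over all called genes the median log2 change was 1.23 for the higher and -1.07 for the lower genes. ENSGACG00000018137 was at 68.9, 74.0, 72.6 and 118 CPM in kept fish 1, 2, 4 and 5. It was at 126, 375, 383 and 339 CPM in moved fish 1 to 4. Moved fish 1 stood just above kept fish 5, so the rise was clear in 3 moved fish and marginal in moved fish 1. The log2 change was 1.88 (SE 0.33, edgeR adjusted p = 0.024), from 83.3 ± 23.0 to 306 ± 121 CPM (SD, n = 4 each). It was lost with any of moved fish 2, 3 or 4 or kept fish 1, 2 or 4 left out (edgeR adjusted p = 0.057 to 0.091) and in the 17-fish fit (0.083).

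ENSGACG00000011880 rose less but evenly. Kept fish 1, 2, 4 and 5 had 141, 110, 111 and 113 CPM, and moved fish 1 to 4 had 240, 214, 182 and 223 CPM. Kept fish 1 was the highest of its group and moved fish 3 the lowest of its own, with a gap left between them. The log2 change was 0.86 (SE 0.12, edgeR adjusted p = 0.0096), from 119 ± 14.8 to 215 ± 24.4 CPM (SD, n = 4 each), and in the 17-fish fit the adjusted p was 0.054.

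The marine fish place these 4 genes, on the scale of all 17 fish. ENSGACG00000009412 was at 820 to 1311 CPM in kept marine fish, which overlaps moved freshwater fish (930 to 1444 CPM on this scale). In marine fish moved to fresh water it was at 4772, 3461, 4889, 3135 and 1365 CPM in fish 1 to 5. That is above kept marine fish in each, although fish 5 was only just above, and below kept freshwater fish (6597 to 8928 CPM). The change in marine fish, moved against kept, was 1.81 log2 units (SE 0.29, edgeR adjusted p = 0.015). In that comparison 524 of 18238 genes (2.87%) were called. It compares no fish of the freshwater comparison, but it comes from the 17-fish fit, in which scaling and spread were estimated from all fish.

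ENSGACG00000018949 was low in kept marine fish, at 13.6 to 143 CPM. Moved marine fish 2, 3 and 4 reached 491 to 804 CPM, while fish 1 and 5 stayed at 72.2 and 34.0 CPM, and the change was 2.97 log2 units (SE 0.85, edgeR adjusted p = 0.062). ENSGACG00000018137 was at 102 to 164 CPM in kept and 26.9 to 166 CPM in moved marine fish, with moved fish 5 the high one (log2 change -0.88, SE 0.44, edgeR adjusted p = 0.25). Its highest levels of all 17 fish were in moved freshwater fish 2, 3 and 4. ENSGACG00000011880 overlapped in both marine groups (165 to 286 and 152 to 281 CPM), and kept freshwater fish, at 106 to 135 CPM, were the low group. None of the 4 had a called difference between the populations in the response to marine against fresh water (interaction term, edgeR adjusted p = 0.22 to 0.84). An effect of being moved that both populations shared would also enter this term, and cannot be told apart in it. In the order given here the terms were -0.91, -0.52, 1.01 and 0.71 log2 units, with unadjusted edgeR p of 0.038, 0.64, 0.13 and 0.019. The genes were chosen for a large freshwater change, which is part of each term, so these values cannot test a larger response in freshwater fish. The absence of a call does not show that the populations responded alike.

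**Figure D3:**
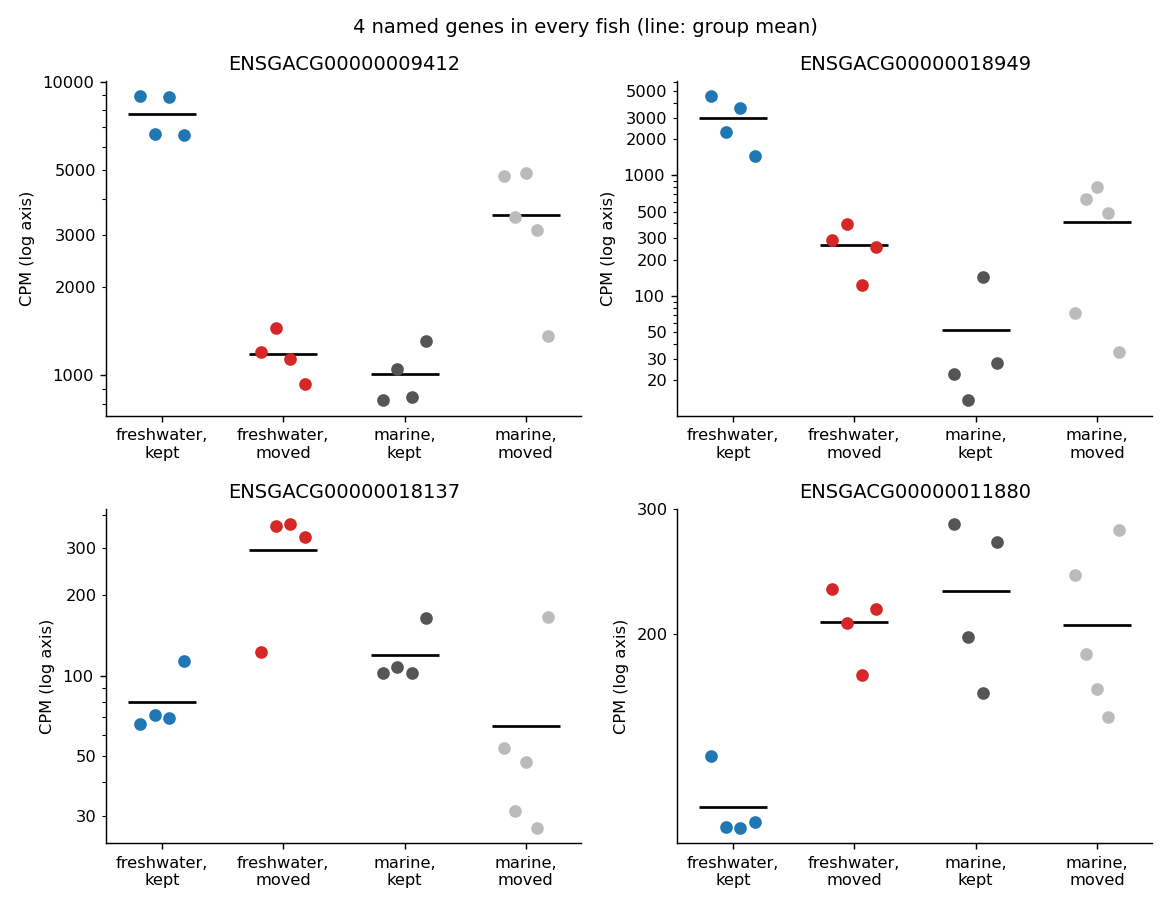
CPM on a log axis of the 4 named genes in each of the 17 fish, scaled together, with a line at each group mean. The 4 kept freshwater fish stand above every other fish for the upper genes, and the 4 moved freshwater fish above the kept ones for the lower genes.

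Measured over all genes, moved fish spread their RNA over more genes. The effective number of genes is the number of equally abundant genes that would give the same Shannon entropy as the counts of a fish. It was 2590, 2694, 2677 and 2737 in kept fish 1, 2, 4 and 5, and 3013, 2965, 2995 and 3122 in moved fish 1 to 4. All moved fish were above all kept fish. The difference of the means, 349 genes (2674 ± 62.1 against 3023 ± 68.4, SD, n = 4 each), had p = 0.0286 in a two-sided exact permutation test, the smallest p that 70 divisions of 8 fish allow. Adjusted over the 3 measures per fish, the exact p was 0.0429. With each gene's counts divided by the divisor shared by all fish, the difference was 530 genes (exact permutation p = 0.0286).

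The 100 most abundant genes of each fish took a smaller share of its counts after the move. That share was 32.2%, 31.3%, 31.2% and 30.9% in kept fish 1, 2, 4 and 5, and 29.3%, 30.0%, 28.99% and 28.7% in moved fish 1 to 4. The groups did not overlap, and the difference of -2.14 percentage points had an exact permutation p of 0.0286 (two-sided, adjusted 0.0429). Both differences remained when the 254 called genes were left out: the effective number was then 2586 to 2693 in kept and 2879 to 3031 in moved fish. Genes not called include abundant ones that were lower, so this does not show how many genes carry the differences. For example, ENSGACG00000000576 had group means of 15960 CPM in kept and 10930 CPM in moved fish, without overlap (edgeR adjusted p = 0.15). The genes over 256 CPM took 52.9% to 54.7% of counts in kept fish and 50.4% to 52.2% in moved fish.

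Detection of rare genes was less clear. With every library thinned to 23609866 counts, genes with 1 count or more numbered 19901, 19926, 19859 and 19848 in kept fish 1, 2, 4 and 5. In moved fish 1 to 4 they numbered 20118, 20003, 19858 and 19965. Moved fish 3 lay among the kept fish and the other moved fish above them, and the difference of 102.5 genes did not pass (exact permutation p = 0.143, adjusted 0.143). Leaving out 1 fish other than moved fish 3 gave 58.5 to 117 genes (exact permutation p = 0.143 to 0.257). Without moved fish 3 it was 145 genes, and with that overlapping fish left out the groups separate by construction. When 10 counts were required the difference was 197 genes (exact permutation p = 0.0286).

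**Figure D4:**
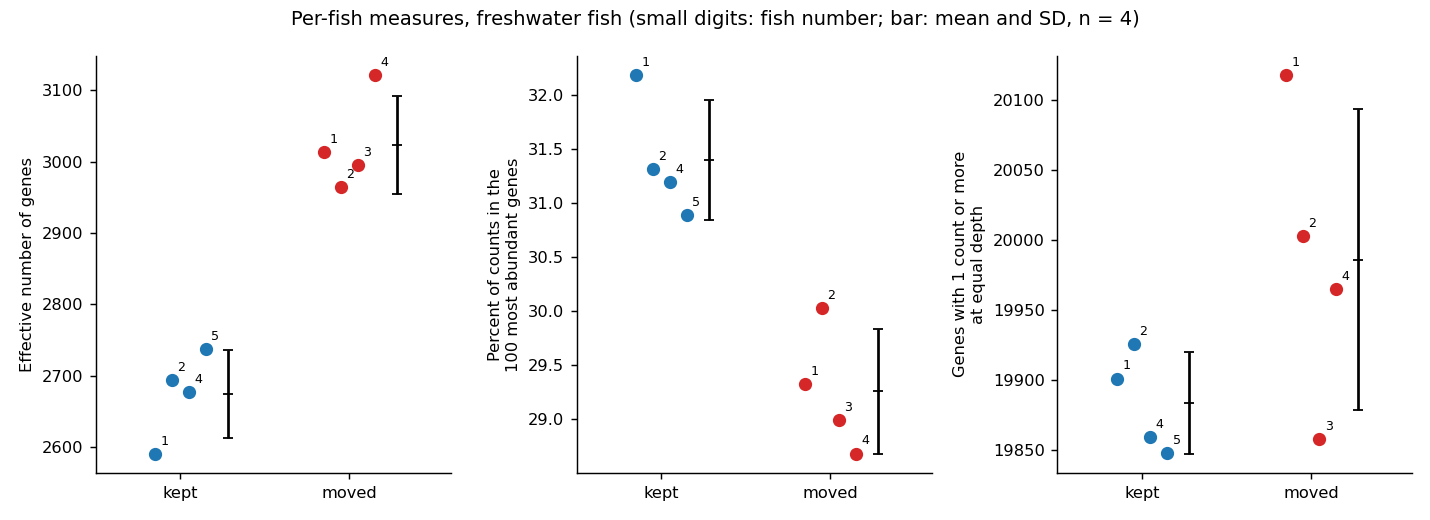
Effective number of genes, percent of counts in the 100 most abundant genes, and genes detected at equal depth (vertical axes, which do not start at 0) for each kept and moved freshwater fish, with the mean and SD of each group of 4. The groups separate in the left and middle panels, and moved fish 3 lies among the kept fish in the right panel.

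The moved fish resembled one another more than the kept fish did. The biological coefficient of variation, the spread between fish beyond counting error, was 22.5% in moved and 27.5% in kept fish. On log2 CPM, 61.1% of the tested genes had the larger SD in kept fish, with a median SD of 0.28 against 0.23. Between 2 moved fish the root mean square difference in log2 CPM was 0.49 to 0.60, between 2 kept fish 0.60 to 0.72, and between a moved and a kept fish 0.59 to 0.73. Distances between groups thus overlapped those among kept fish. With 4 fish a group this is a description, not tested.

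The first principal component of the 8 fish held 24.2% of the variance. It placed moved fish 1, 2, 3 and 4 at 29.3, 26.1, 11.3 and 27.2 and kept fish 1, 2, 4 and 5 at -28.3, -5.27, -7.18 and -53.2. Moved fish 3 and kept fish 2 and 4 stood nearest to the other group. The next component held 20.5% and separated kept fish 2 (49.8) from kept fish 4 (-31.9) rather than the groups.

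Of the 206 lower genes, kept fish 2 had the lowest level of the kept fish in 89 (43.2%), against 25.9% of all tested genes. Kept fish 1 and 4 had the highest in 70 and 71 (34.0% and 34.5%, against 18.9% and 27.0% of all tested genes). Among moved fish, fish 3 had the highest level in 81 of the 206 (39.3%), against 30.1% of all tested genes. Of the 48 higher genes, kept fish 5 had the lowest level in 25 (52.1%, against 28.03% of all tested genes) and kept fish 2 the highest in 18 (37.5%, against 27.3%). The median change from the kept mean over the lower genes was -1.16, -1.04, -0.97 and -1.07 log2 units in moved fish 1 to 4. These genes were called from the same fish, so low values in every moved fish follow in part from the choice.

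Each fish was also measured on genes chosen without it. The other 7 fish were fitted, their called genes taken, and the fish left out was placed on either side of the midpoint between the groups. Moved fish 1, 2, 3 and 4 lay on the moved side for 122 of 135, 107 of 111, 178 of 221 and 105 of 106 genes (90.4%, 96.4%, 80.5% and 99.1%). Kept fish 1, 2, 4 and 5 lay on the kept side for 105 of 109, 174 of 211, 145 of 178 and 165 of 185 genes (96.3%, 82.5%, 81.5% and 89.2%). Over all tested genes the shares were 47.0% to 61.8%.

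Every fish, unused in the choice, sided with its group for at least 80.5% of the genes. Those with the lowest shares, moved fish 3 and kept fish 2 and 4, were those nearest to the other group on the first component. On a scale where the kept mean is 0 and the moved mean 1, the median position was 0.97, 0.93, 0.77 and 1.03 for moved fish 1 to 4. It was -0.06, 0.25, 0.01 and 0.11 for kept fish 1, 2, 4 and 5, so kept fish 4 was at the mean of its group by this measure despite its low share.

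**Figure D5:**
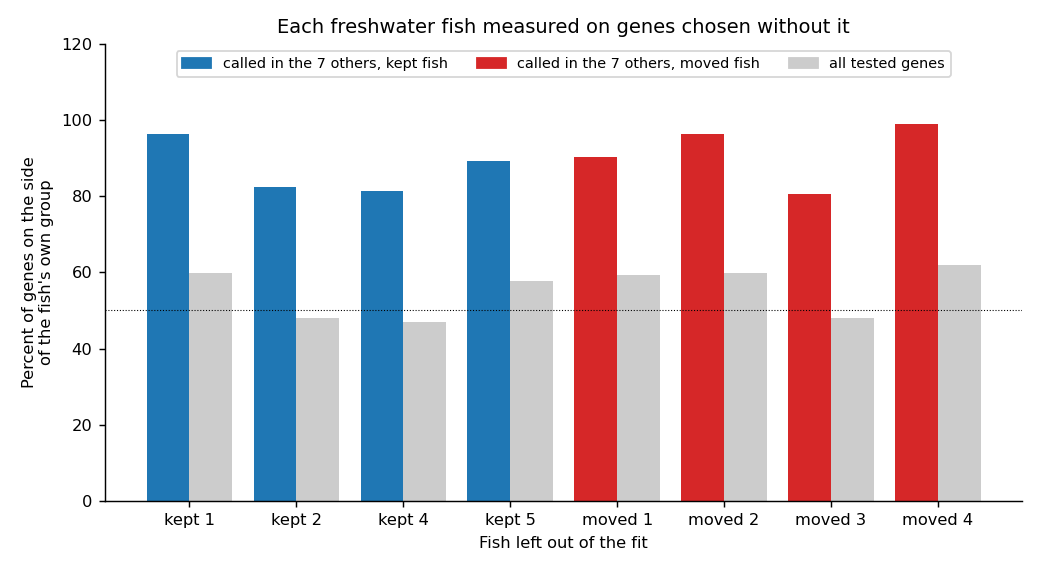
Percent of genes for which a fish left out of the fit lay on its own group's side of the midpoint (vertical axis), for genes called in the 7 other fish (blue for kept, red for moved) and for all tested genes (grey). The coloured bars range from 80.5% to 99.1% and the grey bars from 47.0% to 61.8%.

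The count of called genes depended on single fish. Without moved fish 1, 2 or 4 it was 135, 111 and 106, and without kept fish 1 it was 109, while leaving out each of the other fish gave 178 to 221. Of the 17871 tested genes, 89 (35.0% of the 254) were called with all 8 fish and in every one of these 8 fits. In moved fish 76 of these were lower and 13 higher, with median log2 changes of -1.67 and 2.38. Both named falls are among the 89, and 1 of the named rises. The fits share most of their fish, and passing all of them favours large changes by construction. DESeq2 called 666 genes and limma voom 403, with 253 and 248 of the 254 among them.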

How the data were processed

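Gill RNA of 17 fish was sequenced, and the authors deposited a table of raw counts (22456 genes, 1 column per fish, 0 columns of no sample). CASAVA 1.8.2 and TopHat2 2.1.0 were used, per the submitters' processing notes; the counting tool, build and strand setting were not given in the sources used here. Reads shared by gene copies or overlapping genes cannot be told apart.

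The 8 freshwater fish were grouped by their titles. Genes passed edgeR's filterByExpr (minimum count 10), were scaled by TMM, and were tested with edgeR 4.0.16 (glmQLFit with bias-adjusted deviances, glmQLFTest, Benjamini-Hochberg) in R 4.3.3. Bias adjustment was chosen because it returns the 137 calls of an earlier analysis with 17 fish. Without it, the rule for named genes picks another second fall. Standard errors are the log2 change over the square root of F. Log2 CPM used a prior count of 2. In the fits of 7 fish, scaling for the midpoint included the fish left out. The script was tested on simulated data. Thinning used 1 seed. DESeq2 1.42.0 and limma 3.58.1 (voom with quality weights) were alternatives.

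Depth was 23609866 to 28960967 counts per fish, so the spread between fish, not counting, sets the precision of abundant genes. None of the 22456 IDs matched the reference table (52177 genes), so the gene lists drawn up for named genes were not tested and the rule fell to 2 falls and 2 rises by difference in mean CPM. Groups, rule and lists were chosen with earlier results of these data known. The 9 marine fish were left out of comparisons, apart from single genes and the fit of all 17 fish. Shared divisors were also taken over all 17 fish.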

Additional observations from a re-analysis of the deposited data

Results flagged for a closer look

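In 3 of 14 groups of 4 values examined, 1 fish stood apart from the other 3 by more than Dixon's 95% limit for 4 values; chance flags about 1 in 20 groups. ENSGACG00000018137 accounts for both of its groups: kept fish 5, at 118 CPM against 68.9 to 74.0 CPM, was separated by a gap of 0.895 of the range, and moved fish 1, at 126 CPM against 339 to 383 CPM, by a gap of 0.8293, just past the limit. These are the fish of each group nearest to the other group. For ENSGACG00000011880, kept fish 1, at 141 CPM against 110 to 113 CPM, was separated by a gap of 0.916 of the range. The cause of these gaps was not tested.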

How the results depend on the processing

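The number of called genes, 254 in the fit of 8 fish, was 137 with all 17 fish in the fit, 666 with DESeq2, 403 with limma voom, and 59 against a minimum change of 1.5-fold; leaving out 1 fish gave 106 to 221. The other scalings, filters, equal depth, robust fitting, unadjusted deviances and shared divisors gave 202 to 259. The share of calls that were lower, 81.1%, was 71.0% with DESeq2, 64.9% with library totals alone (added after seeing the data, as were unadjusted deviances and leaving out called genes), and 79.3% to 87.0% without 1 fish. With the fish number as a replicate block 27 of 17871 tested genes were called (1943 at an unadjusted edgeR p below 0.05, genes passing by chance included). Moved fish 3 and kept fish 5 have no fish of the same number in the other group. The change in that fit therefore rested on 3 pairs. The fish are separate animals, and their labels give the number only as that of an individual. Deviations of same-numbered fish correlated across genes at -0.22 to 0.17 over 3 pairs, against -0.18 to 0.21 over 13 other pairs. Of 6 fish, 1 correlated best with its own number. So few pairs cannot show whether a number stands for anything that fish shared. The block leaves fewer residual degrees of freedom by construction, and their part in the lower count was not tested. The gene detection difference, 102.5 genes, was 58.5 to 145 without 1 fish and 197 at 10 counts or more. The coefficient of variation was 23.5% (kept) and 20.1% (moved) in genes of at least 5 CPM in 4 fish, and 20.4% to 23.5% in moved fish with 1 left out. The cause of these shifts was not tested. Every alternative kept the sign of the 4 named genes; ENSGACG00000009412 passed in 21 of 21, ENSGACG00000018949 in 20, ENSGACG00000011880 in 19 and ENSGACG00000018137 in 13. Counts of 27.9% of genes over 200 counts share a divisor in all fish (31.5% of called genes), which would understate counting error if each is a multiple of a read number.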
